A study of Mus musculus with 30 samples.

Results

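Genes of developing and mature T cells were followed through RNA-seq libraries of whole mouse hearts. The 10 genes are Rag1, Rag2, Dntt, Ptcra, Cd8a, Cd8b1, Cd4, Cd3d, Cd3e and Tcf7, and each has a row among the 37620 Ensembl genes of the deposited tables. They were chosen by their symbols after high levels of thymus transcripts had been seen in these libraries, so their levels are given as a description, with no test of the levels themselves. Mice of the R6/2 line are transgenic for a fragment of human HTT with the mutated exon 1, whereas HdhQ150 homozygotes have a long CAG repeat in both copies of their own Htt. R6/2 and WT hearts gave 4 libraries each at 4 weeks, and 4 each at 15 weeks. For HdhQ150 the numbers were 3 libraries beside 4 of WT at 8 months, and 4 beside 3 of WT at 22 months. All were labelled with the strain (CBA x C57BL/6) F1. Mice are named by the numbers in the column headings of the tables.

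T cells are made in the thymus, a lymphoid organ that lies against the top of the heart. Immature thymocytes cut and join the segments of their T cell receptor genes with the RAG1 and RAG2 proteins, and the polymerase TdT, encoded by Dntt, adds bases at the joints. Ptcra encodes the partner of the first rearranged receptor chain. Thymocytes then carry CD4 and CD8 together (double-positive cells) before they keep either and leave as mature T cells, in which Rag1, Rag2, Dntt and Ptcra are switched off while the CD3 chains of the receptor complex and the transcription factor TCF1, encoded by Tcf7, remain.

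Levels are given as CPM, counts brought to a common library size with the trimmed mean of M-values (TMM) over all 30 libraries. Library totals ran from 33718123 to 62127718 counts, and a level of 3 counts, taken as the floor, was between 0.0424 and 0.0932 CPM depending on the library. A total of 5 libraries stood apart in the 10 genes, namely mice 1 and 2 (WT, 15 weeks), mice 12 and 13 (WT, 4 weeks) and mouse 31 (HdhQ150, 22 months). The heart muscle gene Myh6 was at 15904 to 22516 CPM in these 5 libraries and at 9774 to 32981 CPM in the other 25, whose median was 22863 CPM. The 12 heart muscle genes summed to 44987, 46789, 54393, 59472 and 42806 CPM in mice 1, 2, 12, 13 and 31, each below the median of 64287 CPM of the other 25. The TMM factors of these 5 libraries, 1.191, 1.191, 1.233, 1.085 and 1.205, lowered their CPM, so the sums depend on that scaling. In 8 libraries, those of mice 1, 2, 5, 6, 27, 28, 31 and 32, transcripts of sex-linked genes went against the sex in the column heading. This set holds 3 of the 5 libraries that stood apart, 4 of the 8 libraries of 15 weeks and 4 of the 7 of 22 months. Age and genotype were read from the same headings, so the genotype contrasts at these ages rest on headings that are in doubt, and they are given with and without these libraries. By transcripts of sex-linked genes all 8 libraries of 15 weeks were male. At 22 months the 4 HdhQ150 libraries and WT mouse 28 were female by these transcripts, and WT mice 26 and 27 male. Sex was therefore not balanced between the genotypes at 22 months. The headings also carry a code from L1 to L8 whose meaning is not stated, and mice 1 and 13 shared L3 with mouse 23, while mice 2, 12 and 31 had 3 other codes. In whole tissue, fewer cells of a type and less RNA per cell cannot be told apart.

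The stretches of 250 bases before and 50 after the start of the gene are shown for an immature pair, Rag1 and Dntt, and for the adjacent genes Cd3d and Cd3e, because these 4 genes carry the contrast between thymocyte and mature T cell transcripts described here. Sequences are those of RefSeq on GRCm38.p6, written along the strand of the gene. Capitals mark CAGNTG on either strand, the form of E-box bound by the E proteins E2A and HEB of early lymphocytes.
Rag1 promoter, chr2:101649483-101649782, minus strand: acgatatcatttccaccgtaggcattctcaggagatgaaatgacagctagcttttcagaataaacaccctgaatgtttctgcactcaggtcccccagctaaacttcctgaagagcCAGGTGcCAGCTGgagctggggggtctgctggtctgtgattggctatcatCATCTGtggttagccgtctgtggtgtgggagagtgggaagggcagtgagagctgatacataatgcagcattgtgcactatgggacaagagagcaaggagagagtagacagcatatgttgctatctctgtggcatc
Dntt promoter, chr19:41029025-41029324, plus strand: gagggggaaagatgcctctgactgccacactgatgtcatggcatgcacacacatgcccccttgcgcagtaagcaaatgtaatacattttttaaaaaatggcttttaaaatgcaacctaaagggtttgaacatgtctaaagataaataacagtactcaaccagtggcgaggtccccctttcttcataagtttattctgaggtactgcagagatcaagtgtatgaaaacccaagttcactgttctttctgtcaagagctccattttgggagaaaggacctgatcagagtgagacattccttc
Cd3d promoter, chr9:44981536-44981835, plus strand: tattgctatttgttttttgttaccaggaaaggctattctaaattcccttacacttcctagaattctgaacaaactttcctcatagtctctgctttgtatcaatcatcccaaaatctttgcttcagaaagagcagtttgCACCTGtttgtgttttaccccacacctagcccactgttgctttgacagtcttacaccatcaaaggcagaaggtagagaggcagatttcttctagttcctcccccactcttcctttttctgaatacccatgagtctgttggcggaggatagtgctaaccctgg
Cd3e promoter, chr9:45009562-45009861, minus strand: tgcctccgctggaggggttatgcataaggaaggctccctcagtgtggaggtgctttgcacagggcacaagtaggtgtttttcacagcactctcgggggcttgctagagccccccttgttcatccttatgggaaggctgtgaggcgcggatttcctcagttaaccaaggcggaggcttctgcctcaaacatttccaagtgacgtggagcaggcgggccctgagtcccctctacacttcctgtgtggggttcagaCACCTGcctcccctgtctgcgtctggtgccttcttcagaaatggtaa

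The RefSeq table held a promoter for 8 of the 10 genes, and CAGNTG was in 7 of these 8 (Cd3d, Cd3e, Cd8a, Ptcra, Rag1, Rag2 and Tcf7) and in 51.4% of all 32851 promoters of the same length. Rag1 and Ptcra had 3 matches each, and Dntt had none of these letters in its window. The letters TGTGGT, the core bound by RUNX factors, were in Rag1 alone among the 8 and in 16.8% of all promoters, and CTTTGA, the core bound by TCF1, was in Cd3d alone and in 16.0% of all. On the GRCm38.p6 order of coding genes, Rag2 and Rag1 are direct neighbours on chromosome 2, Cd8b1 and Cd8a on chromosome 6, and Cd3g, Cd3d and Cd3e on chromosome 9.

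Rag1, which cuts receptor gene segments, was at 254 CPM in WT mouse 1 and at 204 CPM in WT mouse 2, while the other WT hearts of 15 weeks, mice 3 and 4, were at 4.26 and 0.0744 CPM. In the WT hearts of 4 weeks it was at 55.0 CPM in mouse 13, 35.8 CPM in mouse 12 and 4.67 CPM in mouse 10, and mouse 11 had 0 counts. Both WT groups therefore held hearts with and without Rag1. R6/2 hearts reached 0.123 CPM at 4 weeks and 0.667 CPM at 15 weeks at most. At 8 months the highest level was 0.185 CPM, in HdhQ150 mouse 23. At 22 months the 3 WT hearts had 0 counts, and the HdhQ150 hearts were at 0.532, 0.0540, 0 and 0.0717 CPM in mice 29, 30, 31 and 32. The 4 libraries with high Rag1 were all WT and from the 2 younger ages, and WT mice 10 and 3 came next. The headings gave the sex of these 4 as F and that of the 4 WT hearts with less Rag1 at these ages as M, although transcripts of sex-linked genes in mice 1 and 2 went against it. HdhQ150 mouse 31 was not among the libraries with high Rag1.

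Dntt, which encodes TdT, followed the same libraries. It was at 210 CPM in mouse 1, 195 CPM in mouse 2, 0.918 CPM in mouse 3 and 0.0744 CPM in mouse 4, and at 26.1, 23.1, 2.45 and 0.0249 CPM in mice 12, 13, 10 and 11. R6/2 hearts were at no more than 0.521 CPM, and mouse 31 was at 0.0546 CPM, which is 3 counts. Rag2, the partner of Rag1, was at 34.5 and 33.2 CPM in mice 1 and 2, at 3.79 and 4.10 CPM in mice 12 and 13, and at no more than 0.304 CPM elsewhere. Ptcra was the least abundant of the 4 per length, with 4.45 and 4.30 FPKM in mice 1 and 2 beside 120 and 112 FPKM of Dntt. Its level was 2.24, 2.17, 0.871 and 0.250 CPM in mice 1, 2, 12 and 13, and 17 of the other 25 libraries had 0 counts.

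**Figure D1:**
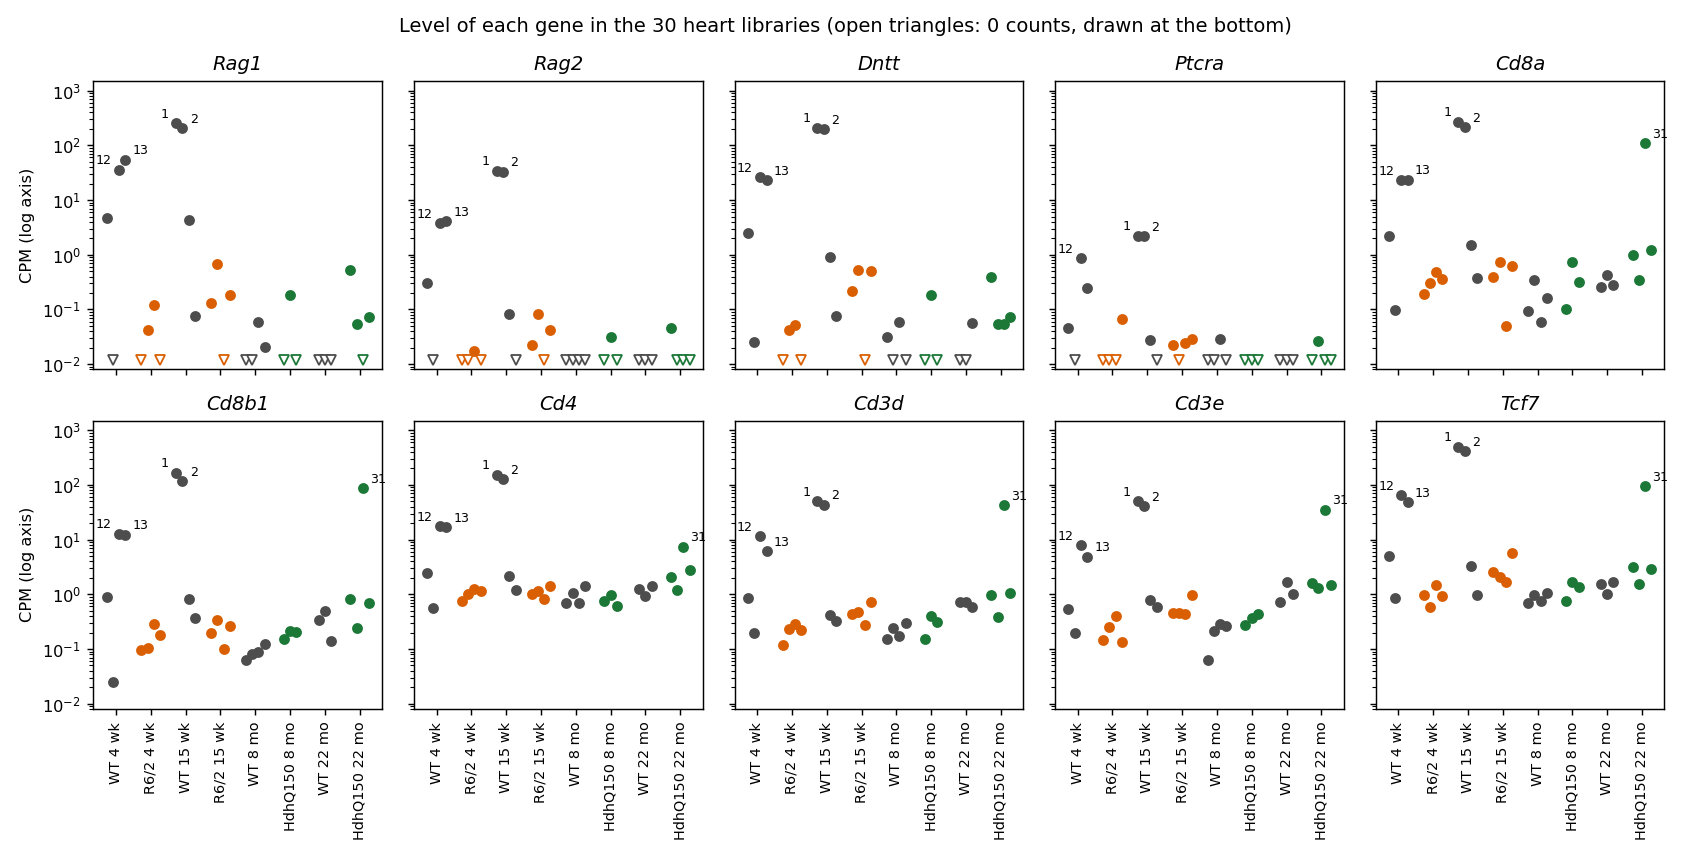
Each panel plots a gene, with 1 point per library in 8 groups (x axis) and its level in CPM on a log axis (y axis). Numbers name mice 1, 2, 12, 13 and 31 where they stand out, open triangles at the bottom are libraries with 0 counts, and mouse 31 is high in Cd8a, Cd8b1, Cd3d, Cd3e and Tcf7 but not in Rag1, Rag2, Dntt or Ptcra.

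The CD8 coreceptor genes were high in all 5 libraries. Cd8a was at 273, 215, 1.502 and 0.372 CPM in WT mice 1 to 4 and at 2.22, 0.0997, 23.3 and 23.7 CPM in WT mice 10 to 13. HdhQ150 mouse 31 was at 109 CPM, and the other HdhQ150 hearts of 22 months, mice 29, 30 and 32, were at 0.971, 0.351 and 1.24 CPM. Cd8b1, the beta chain, was at 169 and 119 CPM in mice 1 and 2, at 12.8 and 12.3 CPM in mice 12 and 13 and at 86.5 CPM in mouse 31. Mouse 31 thus had a higher level of both CD8 chains than the WT hearts of 4 weeks. Cd4, the coreceptor of helper T cells, had another order, with 154 and 127 CPM in mice 1 and 2, 17.8 and 16.8 CPM in mice 12 and 13, and 7.39 CPM in mouse 31. In the other 25 libraries Cd4 was never near 0, with a lowest level of 0.573 CPM and a median of 1.13 CPM.

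Cd3d and Cd3e encode chains of the CD3 complex that passes the receptor signal into the cell. Cd3e was at 50.7, 41.2, 0.779 and 0.595 CPM in WT mice 1 to 4, at 0.537, 0.199, 8.00 and 4.85 CPM in WT mice 10 to 13, and at 35.1 CPM in mouse 31. Its level in R6/2 hearts was 0.136 to 0.404 CPM at 4 weeks and 0.446 to 0.960 CPM at 15 weeks. Cd3d was at 50.8, 43.3, 11.5, 6.20 and 43.1 CPM in mice 1, 2, 12, 13 and 31, and at 0.119 to 1.05 CPM in the other 25. Tcf7 reached 503 and 413 CPM in mice 1 and 2, 64.5 and 47.8 CPM in mice 12 and 13 and 95.3 CPM in mouse 31, and lay between 0.576 and 5.75 CPM in the other 25. R6/2 mouse 8 at 15 weeks was the highest of those 25 in Tcf7.

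The sum of each gene over the 30 libraries fell to few hearts. Mice 1 and 2 held 81.8% of all Rag1, 88.8% of Rag2, 88.0% of Dntt and 76.0% of Ptcra, and mice 12 and 13 held 16.2%, 10.3%, 10.7% and 19.3%. Mouse 31 held 0% of Rag1, Rag2 and Ptcra and 0.0119% of Dntt. Of the coreceptor, CD3 and Tcf7 genes the same heart held 22.7% of Cd3e, 26.1% of Cd3d, 21.3% of Cd8b1 and 16.6% of Cd8a, against 8.15% of Tcf7 and 2.09% of Cd4. The other 25 libraries together held 0.826% of Rag2 at the lowest and 9.73% of Cd3e at the highest.

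Likeness was measured as the overlap of 2 profiles, the sum over the 30 libraries of the smaller of the shares that a library holds of each gene's total. Rag2 and Dntt had the highest overlap of the 45 pairs, 98.5%, and the 6 pairs among the immature genes lay between 85.8% and 98.5%. The overlap of Cd8a with Cd8b1 was 95% and that of Cd3d with Cd3e was 93.9%. Pairs of an immature gene with Cd3d, Cd3e or Tcf7 went down to 66.3% for Rag2 with Cd3d, and Tcf7 was nearer to Rag1 (89.1%) than to Cd3e (79.5%). These overlaps share the same few libraries and are a description.

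**Figure D2:**
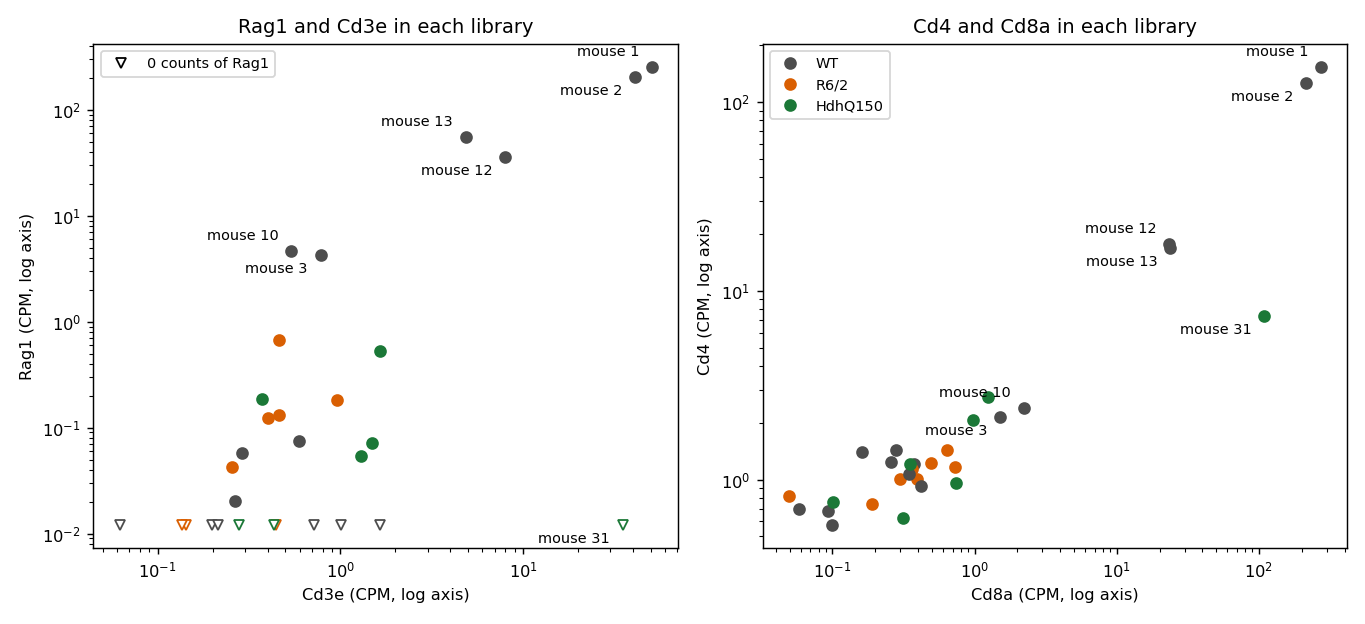
Each point is a library, with Rag1 against Cd3e on the left and Cd4 against Cd8a on the right, in CPM on log axes, coloured by genotype. Mice 1, 2, 12 and 13 are high in both genes of each panel, and mouse 31 has 35.1 CPM of Cd3e with 0 counts of Rag1, and 109 CPM of Cd8a with 7.39 CPM of Cd4.

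Ratios within a library were taken in FPKM, which is per length. The ratio of Rag1 to Cd3e was 1.09 in mouse 1, 1.07 in mouse 2, 0.973 in mouse 12 and 2.47 in mouse 13, and 1.19 and 1.89 in mice 3 and 10, where levels were far lower. The ratio of Dntt to Cd3e lay between 2.26 and 3.30 in mice 1, 2, 12 and 13 and was 0.00108 in mouse 31. The ratio of Cd4 to Cd8a was 0.583, 0.602, 0.798 and 0.753 in mice 1, 2, 12 and 13 and 0.0688 in mouse 31, whereas the other libraries with at least 20 counts of both genes were at 1.38 to 2.71. The ratio of Cd8a to Cd8b1 ran from 0.736 to 0.877 in mice 1, 2, 12 and 13 and was 0.574 in mouse 31. Mouse 31 lay outside the range of the 4 WT libraries in each of these ratios. It lay within that range in the ratio of Cd8a to Cd3e, which was 2.48, 2.41, 1.34 and 2.26 in mice 1, 2, 12 and 13 and 1.43 in mouse 31, and in that of Cd3d to Cd3e, which was 1.09, 1.14, 1.56 and 1.39 in mice 1, 2, 12 and 13 and 1.33 in mouse 31.

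In the 24 libraries with less than 1 CPM of Rag1, Cd3e was set beside the coreceptor genes, Cd3d and Tcf7. The genes were chosen with their levels known, so the relation is a description with no test. Over these libraries, on the scale of log2(CPM + 0.1), the Pearson r of Cd3e was 0.947 with Cd3d, 0.918 with Cd8b1, 0.882 with Tcf7, 0.866 with Cd8a and 0.854 with Cd4. Spearman's rho was 0.897, 0.821, 0.757, 0.603 and 0.643 in the same order. Without mice 31 and 17, which are farthest from the median of Cd3e, r was 0.874, 0.781, 0.616, 0.540 and 0.617. Within an age r was lower for most pairs only once mouse 31 was left out. With mouse 31 r at 22 months (n = 7) was between 0.871 and 0.982, higher than over the 24 libraries for each pair. At 22 months without mouse 31 (n = 6) r was between 0.249 and 0.689, and at 8 months (n = 7) between 0.0513 and 0.817. At 4 and 15 weeks fewer than 6 of these libraries were left per age. The points share ages and groups.

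Age was read in the WT hearts of the HdhQ150 series. Cd3e was at 0.0622 to 0.290 CPM in WT hearts of 8 months and at 0.717 to 1.65 CPM in WT hearts of 22 months, and Cd3d at 0.155 to 0.305 and at 0.587 to 0.727 CPM. With Cd8b1, at 0.0622 to 0.122 and 0.140 to 0.503 CPM, these were the members that were higher in every WT library of 22 months than in every WT library of 8 months. The same held for 19.7% of all 15848 genes with at least 300 counts over the 30 libraries. No test of age was made and nothing is read from the number of members, since the immature genes had almost no counts in these hearts. Cd8b1 rested on 2 to 6 counts per WT library at 8 months and 5 to 18 at 22 months. Cd3e had 2 counts in WT mouse 17 of 8 months. WT mice 27 and 28 of 22 months went against the sex in their heading. Cd4, Cd8a and Tcf7 overlapped between these ages. In all 7 WT hearts of 8 and 22 months, Rag1 and Dntt were at or below 0.0580 CPM.

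Genes outside the list were ranked by their overlap with Rag1 and with Cd3e among 15285 named genes with at least 300 counts. The 10 nearest to Rag1 were Ccr9 (95.5%), Chrna9, Myb, Trbc1, Gm15340, Trat1, Trbv5, A930002I21Rik, Gfi1 and Trbv13-1 (91.5%), against a median over all genes of 14.9%. Ccr9, a chemokine receptor that guides cells within the thymus, was at 85.8, 70.5, 13.4, 10.7 and 0.564 CPM in mice 1, 2, 12, 13 and 31. Myb, a transcription factor of blood precursors, was at 121, 88.5, 19.6, 13.8 and 0.855 CPM. The 10 nearest to Cd3e were Jakmip1 (96.5%), Zap70, Cd3g, Skap1, Acap1, Tespa1, Sit1, Cd27, Mir142hg and Trac (90.5%), against a median of 25.5%. Zap70, the kinase that binds the CD3 chains, was at 29.9, 24.6, 5.33, 2.25 and 23.3 CPM in the same 5 mice. In mouse 31 the first set reached 1.86 CPM at most, in Trbc1, and the second was at 5.82 CPM or more, which follows from ranking genes by likeness to Rag1 and to Cd3e.

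Other lists of markers were read in the same libraries. All 14 genes of the T cell receptor complex and its signalling were above the highest of the other 25 libraries in each of mice 1, 2, 12, 13 and 31, with Lck, the kinase of the coreceptors, at 282, 244, 41.3, 27.3 and 110 CPM, Lat, the adaptor beside it, at 131, 116, 18.8, 12.3 and 50.2 CPM, and Trbc2, a constant segment of the receptor beta chain, at 100, 90.1, 16.6, 11.5 and 34.2 CPM. For comparison, 16.6%, 14.9%, 7.37%, 5.45% and 17.0% of all genes with at least 300 counts were above the other 25 in these 5 libraries. Of the 14 proliferation genes, 14, 14, 13 and 13 were above in mice 1, 2, 12 and 13 and 3 in mouse 31. Mki67, a protein of dividing cells, was at 112, 109, 28.6 and 36.5 CPM in the 4 WT mice and at 8.20 CPM in mouse 31, with 25.2 CPM in WT mouse 10 as the highest of the other 25. Top2a was at 119, 121, 27.3, 29.3 and 5.57 CPM and Stmn1 at 140, 144, 34.6, 35.6 and 16.3 CPM.

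Genes of double-positive thymocytes were mixed. In mice 1, 2, 12 and 13, 10, 8, 7 and 7 of the 12 were above the other 25 libraries, and 4 in mouse 31. Satb1, a chromatin organiser of thymocytes, was at 317, 249, 53.6, 48.1 and 65.6 CPM and at 15.1 to 24.8 CPM in the other 25, whereas Ets2 lay within their range in mice 12 and 13 and below it in mouse 31, at 59.0 CPM. Of the 12 genes of double-negative and early progenitors, 6, 6, 5, 3 and 6 were above the rest in mice 1, 2, 12, 13 and 31. Among them Bcl11b, a factor of T lineage commitment, was at 97.1, 76.4, 16.6, 11.4 and 17.6 CPM and Notch3 lay within the range of the other libraries in mice 1, 2, 12 and 13 and below it in mouse 31.

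Genes of the supporting tissue of the thymus were high in mice 1, 2 and 12 and, for part of the list, in mouse 13, the libraries with high Rag1. Their sum was 374, 329, 236 and 65.7 CPM in mice 1, 2, 12 and 13. In the other 25 libraries it was 21.2 to 94.4 CPM, highest in R6/2 mouse 8, so mouse 13 lay within that range. Mouse 13 had more Rag1 than mouse 12 (55.0 against 35.8 CPM) but less Prss16, Ccl25 and Tbata. The peptidase gene Prss16 of cortical epithelium was at 103, 91.5, 63.0 and 11.4 CPM in mice 1, 2, 12 and 13, Ccl25, a chemokine for thymocytes, at 63.5, 49.9, 30.8 and 8.13 CPM and Tbata at 62.04, 60.6, 36.4 and 6.16 CPM. In mouse 31 they were at 0.109, 1.18 and 0.218 CPM. The ratio of Prss16 to Rag1 in FPKM was 1.5 and 1.64 in mice 1 and 2, 6.22 in mouse 12 and 0.772 in mouse 13, so the epithelial and thymocyte genes were not in a fixed proportion. R6/2 mouse 8 had the next highest level of Prss16, 4.77 CPM, with Rag1 at 0.184 CPM. Of 14 genes of thymic epithelium and stroma, 11, 11, 11 and 8 were above the other 25 libraries in mice 1, 2, 12 and 13, and 1 in mouse 31.

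RAG1 and TdT are also made by B cell precursors in bone marrow. Of 10 genes of B cell precursors, 6, 8, 6 and 4 were above the other 25 libraries in mice 1, 2, 12 and 13. The list also holds genes that are not particular to these cells, namely Rag1, Rag2, Dntt, Il7r and Bub1b, a gene of cell division. Bub1b was at 26.3, 27.8, 7.27 and 7.38 CPM in mice 1, 2, 12 and 13 and at no more than 3.79 CPM in the other 25. In mouse 13 the 4 genes above were Rag1, Rag2, Dntt and Bub1b. Of the listed genes that encode the surrogate light chain of B cell precursors, picked after their values were seen, Vpreb1 was at 0.247, 0.223, 0.182 and 0.0416 CPM in mice 1, 2, 12 and 13 and Igll1 at 0, 0.101, 0.0203 and 0.0208 CPM, where the highest of the other 25 libraries were at 0.140 and 0.0878 CPM. None of the 10 genes of mature B cells was above the other 25 libraries in these 4 mice, with a sum of 9.11 to 30.03 CPM against 6.53 to 44.7 CPM. The summed T cell receptor list stood at 980, 814, 176 and 107 CPM in mice 1, 2, 12 and 13 and at 6.25 to 23.9 CPM in the other 25.

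Mouse 31 had a different set of lymphoid genes. Of 18 genes of mature single-positive and peripheral T cells, 15 were above the other 25 libraries, beside 7, 8, 11 and 3 in mice 1, 2, 12 and 13. Ccl5, a chemokine of memory and effector T cells, was at 184 CPM in mouse 31 and at 1.75, 1.11, 4.11 and 0.998 CPM in mice 1, 2, 12 and 13. Il7r, the receptor for a survival signal of resting T cells, was at 133 CPM in mouse 31 and at no more than 4.70 CPM in the other 29 libraries, and its ratio to Cd3e in FPKM was 1.69 in mouse 31 and 0.0415, 0.0376, 0.182 and 0.0941 in mice 1, 2, 12 and 13. S1pr1, which lets T cells leave the thymus and lymph nodes, was at 93.9 CPM, within the range of 40.1 to 122 CPM of the other 25.

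Of 7 genes of NK cells, some of them shared with cytotoxic T cells, 4 were above the other 25 libraries in mouse 31. Prf1 (perforin) was at 26.5 CPM, Eomes, a transcription factor of both, at 22.0 CPM and Klrd1 at 12.99 CPM, whereas the highest of these in any of the other 29 libraries was 0.607 CPM of Prf1, in mouse 12. Klrb1c was at 1.24 CPM in mouse 31, above the other 25, and Ncr1, a receptor of NK cells, at 0.0728 CPM, below each of them. All 10 B cell genes were above the other 25 libraries in mouse 31, with Cd79a and Cd79b, the signalling chains of the B cell receptor, at 71.8 and 55.2 CPM, and the highest of the other 25 at 9.71 and 6.40 CPM in HdhQ150 mouse 29. Cxcl13, a chemokine of B cell follicles, was at 64.3 CPM and Glycam1, a gene of lymph node vessels, at 9.86 CPM, while Ccl19 lay within the range of the other 25 and Madcam1 had 0 counts. Cxcl13 was also at 20.3 CPM in mouse 12 and at no more than 10.8 CPM in the other 25. The airway gene Scgb1a1 was at 395 CPM and Bpifa1 at 276 CPM in mouse 31, beside 125 and 9.84 CPM in mouse 12 and 0.0416 and 0.0624 CPM in mouse 13. The summed airway list was highest in R6/2 mouse 8, at 5415 CPM, where Rag1 was at 0.184 CPM and Cd3e at 0.960 CPM. The part of these tissues in the levels of the members was not tested.

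**Figure D3:**
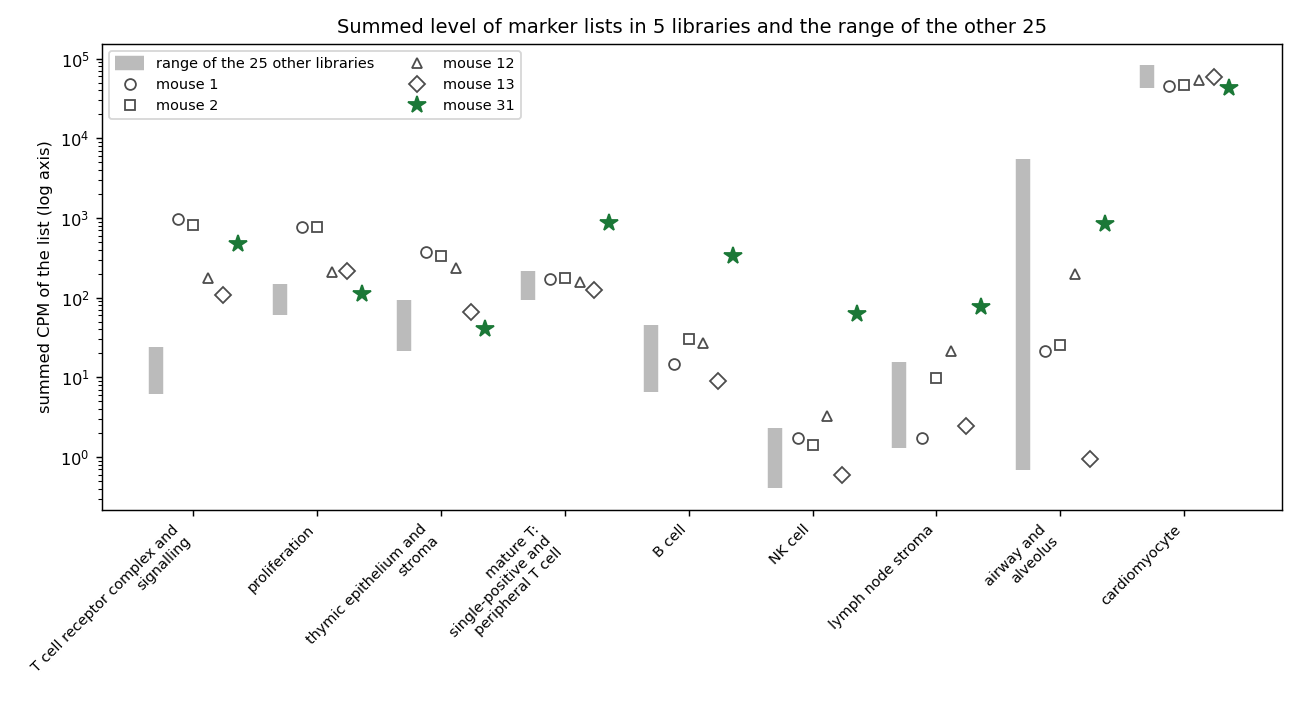
The y axis gives the summed CPM of each list of marker genes on a log axis, with grey bars for the range of the other 25 libraries and a symbol for each of mice 1, 2, 12, 13 and 31. Mice 1, 2 and 12 rise above the grey bars in T cell receptor, proliferation and thymic epithelium genes, and mouse 31 in T cell receptor, mature T cell, B cell, NK cell and lymph node genes. Mouse 13 rises above the grey bars in T cell receptor and proliferation genes (107 and 213 CPM) but not in thymic epithelium genes (65.7 CPM). Mouse 12 is also above them in NK cell genes (3.28 against at most 2.32 CPM) and lymph node genes (21.7 against at most 15.6 CPM).

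The V segments of the receptor beta chain gave a further view of the T cells. The tables hold 20 Trbv segments, some of them near-identical, so that single segments are uncertain. In mice 1, 2, 12 and 13 there were 1833, 1678, 343 and 245 Trbv counts, and Trbv13-2 was the most frequent in each, with 18.3% (16.6 to 20.2), 20.4% (18.5 to 22.4), 20.1% (16.0 to 24.8) and 19.6% (14.8 to 25.1) of the Trbv counts (exact Clopper-Pearson 95% intervals, which cover counting error only). In mouse 31 Trbv1 took 780 of 1093 Trbv counts, 71.4% (68.6 to 74.0), and Trbv17 another 19.9%. Trbv1 took 8.13%, 6.73%, 11.4% and 8.16% in mice 1, 2, 12 and 13. No other library had 20 Trbv counts. The ratio of the constant segments Trbc1 to Trbc2 in FPKM was 0.859, 0.735, 0.856 and 0.730 in mice 1, 2, 12 and 13 and 0.0551 in mouse 31. These 2 genes are near-identical copies, and how the authors' counting divided shared reads is not given in the sources used here.

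**Figure D4:**
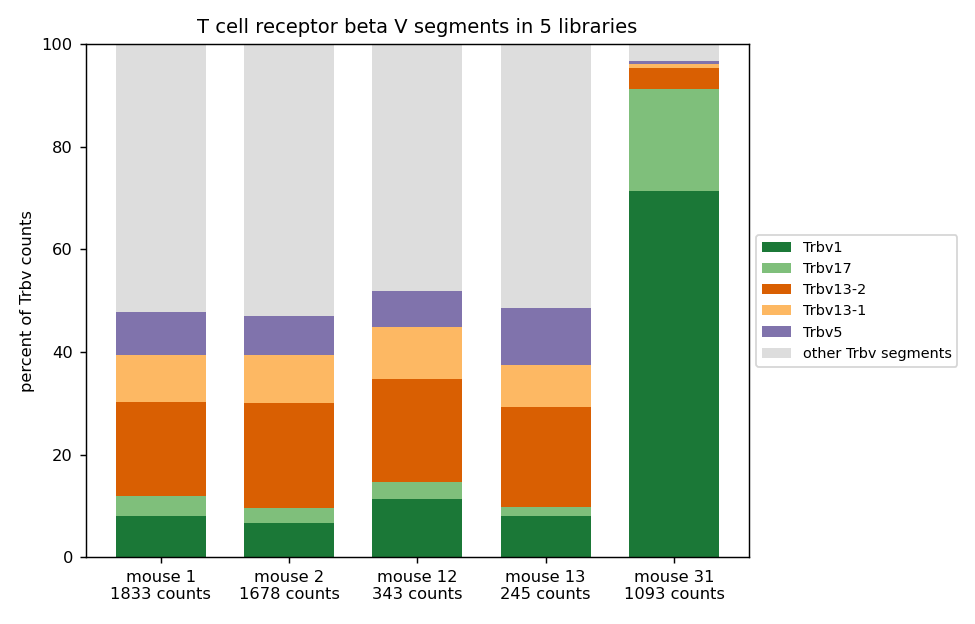
The bars show the percent of Trbv counts (y axis) taken by 5 named V segments and by all others in mice 1, 2, 12, 13 and 31, with the number of Trbv counts under each bar. Trbv13-2 leads in the 4 WT libraries at 18.3% to 20.4%, and Trbv1 with Trbv17 fills most of the bar of mouse 31.

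The question the study put to these libraries was whether HD hearts differ from WT hearts at each age. At 15 weeks edgeR tested 15463 genes and called 14.3% of them where a call took a Benjamini-Hochberg adjusted p below 0.1 together with a change of 1.3-fold or more. Of the 10 members 8 passed the filter on low counts, Rag2 and Ptcra did not, and all 8 were called lower in R6/2 hearts. The levels that chose the members come from this contrast, so nothing is read from that count. The log2 fold change of Rag1 was -8.85 ± 2.18 (SE, adjusted p = 0.0518 from edgeR), that of Cd8b1 was -8.28 ± 2.04, and that of Cd3e was -5.30 ± 1.45. The groups overlapped in Rag1, where WT mouse 4 lay within the range of the R6/2 hearts, and also in Dntt, Cd8a, Cd4, Cd3d, Cd3e and Tcf7. In Cd8b1 the lowest WT heart, mouse 4 at 0.372 CPM, was above the highest R6/2 heart, mouse 6 at 0.334 CPM. These levels are 15 and 16 counts, so their order comes from the library sizes. The share of all genes without overlap was not computed at this age, and nothing is read from Cd8b1. Without WT mice 1 and 2, an alternative chosen after seeing the data, edgeR called 6.69% of 16027 genes and 0 of the 8 members tested. The log2 fold change was then -3.12 ± 1.43 for Rag1, -1.40 ± 0.55 for Cd8b1 (adjusted p = 0.184 from edgeR, unadjusted 0.0378), -0.24 ± 0.43 for Cd3e, 0.38 ± 0.46 for Cd3d and 0.48 ± 0.65 for Tcf7. The 8 calls were also lost without R6/2 mouse 5, 7 or 8 alone, and without WT mouse 1 or 2 alone, 1 remained without R6/2 mouse 6, and leaving out any 1 library gave 659 to 3376 genes called. Without the 4 libraries that went against the sex in their heading, also chosen after seeing the data, 2 WT and 2 R6/2 hearts remained and edgeR called 0.212% of 15541 genes and 0 of the 7 members tested, with log2 fold changes from -1.63 ± 0.70 for Cd8b1 to 0.78 ± 0.78 for Tcf7. DESeq2 on all 8 libraries called 13.6% of the genes it tested and all 10 members, and limma on log2(FPKM + 1) called 0 of 8.

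The other genes of the lists depended on the same libraries at 15 weeks. Of the 13 T cell receptor genes tested, 12 were called lower in R6/2 hearts with all libraries and 0 without mice 1 and 2, and the median log2 fold change went from -5.63 to 0.12, beside -0.02 and 0.00 over all genes. Of 14 proliferation genes, 11 were called lower with all libraries and 3 without. Of 12 double-positive thymocyte genes, 7 and 1 were called lower. None of the 8 B cell genes tested was called with all libraries, where the median was -0.09, and without mice 1 and 2 none of 10 was called, all 10 had a positive log2 fold change and the median was 0.84. Airway and alveolus genes ran the other way, with 5 of 7 called higher in R6/2 hearts and a median of 4.95 with all libraries, and 0 of 12 called and a median of 6.38 without mice 1 and 2. Genes of thymic epithelium had medians of -1.48 over 11 genes and 2.28 without mice 1 and 2. This list also holds Krt8, Cldn3 and Epcam, which are not particular to the thymus. They were at 19.9, 13.5 and 8.12 CPM in R6/2 mouse 8, the library with the highest airway sum, where Prss16 was at 4.77 CPM. The part of these tissues in the values of the members was not tested.

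At 4 weeks edgeR called 0% of 15478 genes, with 513 at an unadjusted p under 0.05, while DESeq2 called 0.272% of 24992 genes. The 6 members tested by edgeR (Cd8a, Cd8b1, Cd4, Cd3d, Cd3e and Tcf7) were lower in R6/2 hearts by log2 fold changes from -5.26 to -3.21 and were not called, and DESeq2 called 8 of 10, all but Cd4 and Ptcra. The WT and R6/2 groups overlapped in each of these 6 genes, since WT mouse 11 was at or below the highest R6/2 heart. Without WT mice 12 and 13, again chosen after seeing the data, the log2 fold changes of the 6 lay between -1.78 and -0.54 and edgeR called 0 of them and 0% of 15862 genes, with 566 at an unadjusted p under 0.05.

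In the HdhQ150 line at 22 months, edgeR called 0% of 15569 genes, with 2591 at an unadjusted p under 0.05, and 0 of the 6 members tested. By transcripts of sex-linked genes all HdhQ150 hearts of this age were female, and WT mice 26 and 27 male. Genotype is therefore partly confounded with sex in this contrast. The log2 fold change of HdhQ150 against WT hearts was 6.48 ± 2.40 for Cd8a, 4.23 ± 1.64 for Tcf7, 3.17 ± 1.38 for Cd3e and 1.52 ± 0.60 for Cd4, with adjusted p-values of 0.291 to 0.299 for the 6. Without mouse 31 the values were 1.43 ± 0.49 for Cd8a, 0.87 ± 0.32 for Tcf7, 0.40 ± 0.32 for Cd3e and 0.77 ± 0.33 for Cd4, all 6 were still above 0, and 0% of 15273 genes were called, with 2554 at an unadjusted p under 0.05. In the fit of all 30 libraries, 7.70% of 17080 genes and 2 of 10 members, Cd8a and Cd8b1, were called at 22 months. The groups overlapped in all 6 members. Of the 13 T cell receptor genes tested, 13 had a positive log2 fold change with and without mouse 31, none was called, and their median went from 3.78 to 0.76. Markers of other cells moved with them, and their part in the result was not tested. The median of the B cell genes was 3.05 over the 10 tested and 1.16 over the 9 tested without mouse 31, that of the airway genes 4.597 over 7 and 3.57 over 4, that of the lymph node genes 2.78 over 4 and 0.76 over 2, and that of the erythroid genes 1.21 over 6 and 0.98 over 5. The 3 NK cell genes tested had a median of 4.95, and the 1 tested without mouse 31 was at 0.84. Without the 4 libraries that went against the sex in their heading, which leaves 1 WT heart that is assumed to vary like the HdhQ150 hearts, edgeR called 0.0313% of 15959 genes and 0 of the 8 members tested, with log2 fold changes of 1.37 ± 0.92 for Cd8a, 1.05 ± 0.51 for Cd3e and -0.06 ± 0.75 for Cd3d.

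At 8 months edgeR called 0% of 15173 genes, with 1124 at an unadjusted p under 0.05 and 68 called by DESeq2. Of the members, 5 were tested by edgeR and 10 by DESeq2, and none was called by either tool. The log2 fold changes from edgeR were 1.14 ± 0.70 for Cd8a, 0.78 ± 0.42 for Cd3e, 0.54 ± 0.29 for Tcf7, 0.35 ± 0.40 for Cd3d and -0.33 ± 0.31 for Cd4. No library of this age had more than 0.741 CPM of Cd8a or 0.435 CPM of Cd3e.

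**Figure D5:**
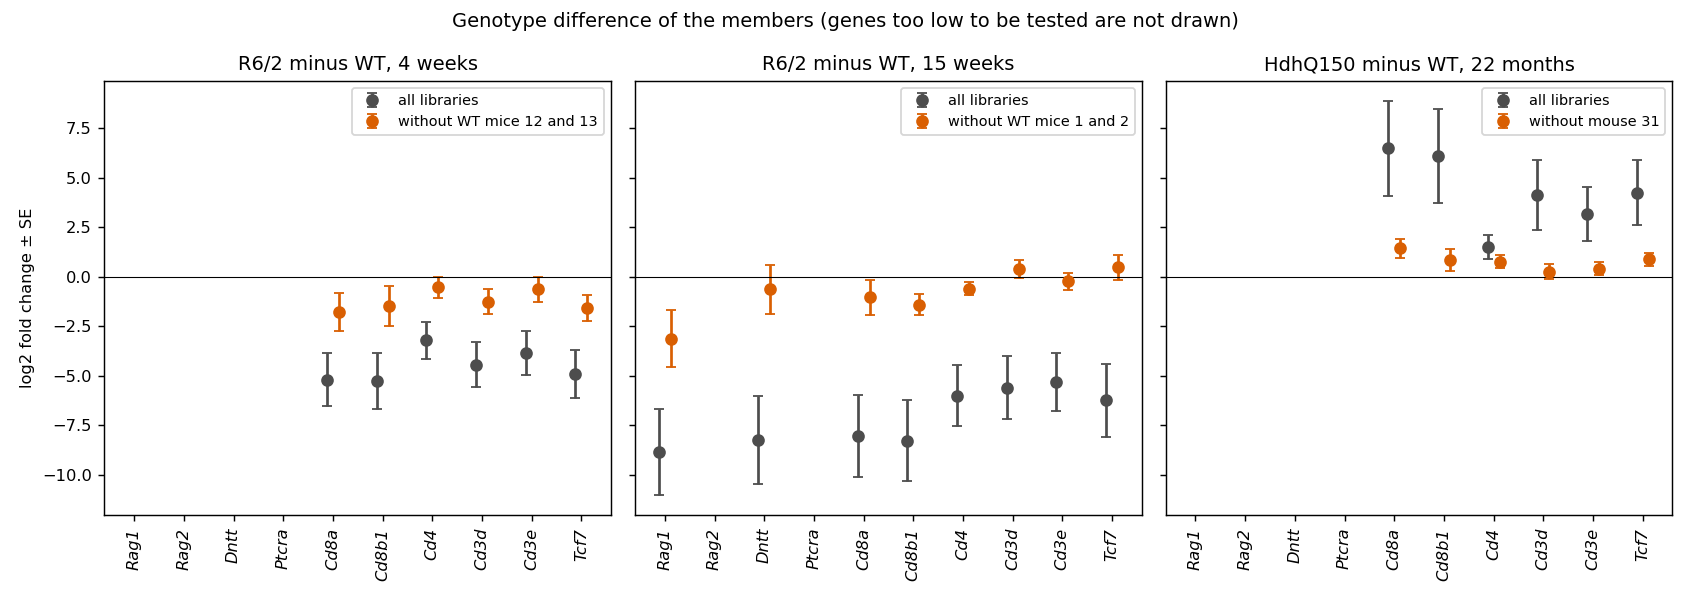
The y axis gives the log2 fold change of each member (x axis) with its SE from edgeR, HD minus WT, at 4 weeks, 15 weeks and 22 months. Grey points use all libraries and orange points leave out mice 12 and 13, mice 1 and 2, or mouse 31, which moves the values towards 0, as for Cd8a from 6.48 to 1.43 at 22 months.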

How the data were processed

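Total RNA of whole hearts was sequenced. The authors used OSA, the aligner of Omicsoft, and build B37 of the mouse. They deposited expected counts per gene, which were not normalized and of which 70.9% of the non-zero values were whole within a tolerance of 1e-09, and FPKM values, which the authors scaled by length and by library. A sheet with sample details was not used, and the number of sample columns without a group was 0. The plan assumed whole counts, so the counts were rounded. Symbols from a table of Ensembl identifiers matched 32897 of 37620 genes, and the 4723 without a symbol held 0.759% of the counts. Columns were joined to groups by age and genotype, and the sex is that of the headings. No pair of libraries of a group agreed within sampling noise, where chi-square over its degrees of freedom was 5.73 or more. Nothing in the sources used here says whether the counting used strand.

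The members and the gene lists were chosen with earlier results of these data known. The genes named are the 10 members, the 3 genes of each list with the highest CPM in any library, and the 10 genes with the highest profile overlap with Rag1 and with Cd3e; Ncr1, Vpreb1, Igll1, Madcam1, Trbv segments and others outside this rule were picked after their values were seen. Some genes that the rule names are not reported here.

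Genotypes were compared at each age with edgeR 4.0.16 under R 4.3.3, by its quasi-likelihood test after filterByExpr and TMM, with only the groups compared in the fit, Benjamini-Hochberg adjusted over all genes, in place of DESeq, the tool of the study. SEs were taken from the log2 fold change and F (its absolute value over the root of F). Alternatives were DESeq2 1.42.0, limma 3.58.1 on log2 FPKM with 2 pseudocounts, RLE size factors, no filter, all 30 libraries in 1 fit and each library left out. The edgeR step was tested on simulated data. Replicates are separate mice. Descriptions used Python 3.11.15, numpy 2.4.6, pandas 2.3.3 and scipy 1.17.1, and figures matplotlib 3.10.9. Promoter sequences of RefSeq (GRCm38.p6) were matched by symbol for 8 members and read on both strands. CPM depends on the library total, so a library with much RNA of another tissue has lower values of its heart genes. TMM did not offset this in the 5 libraries that stood apart, whose factors were above 1 and lowered their CPM further. In mouse 1 Rag1 was at 302 CPM on the raw library total and at 254 CPM after TMM.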

Additional observations from a re-analysis of the deposited data

Results flagged for a closer look

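Within groups of 4 libraries, the gap of the highest library to the nearest one, and that of the lowest, was divided by the range of the group. Ratios above 0.829 (Dixon's critical value for either end, which chance passes in about 1 of 20 groups) are listed, and all of them were for the highest library. The members were chosen by these levels and share libraries, and a single count beside 3 libraries at 0 gives a ratio of 1, so the number of ratios listed is no evidence and they are a description. In HdhQ150 hearts of 22 months mouse 31 was far above the others in Cd8a (ratio 0.992), Cd8b1 (0.993), Cd3d (0.984), Cd3e (0.990) and Tcf7 (0.983). In the same group mouse 29 was far above in the immature genes Rag1 (0.865, at 0.532 CPM), Dntt (0.948, at 0.393 CPM) and Rag2 (1, at 0.0462 CPM, with 0 counts in the other 3). Mouse 8 was far above the other R6/2 hearts of 15 weeks in Cd3e (0.972), at 0.960 CPM. The remaining ones rest on libraries at or below about 3 counts with 0 counts in the other 3, each with a ratio of 1: Rag2 in R6/2 mouse 15 at 4 weeks, and Ptcra in R6/2 mouse 16 at 4 weeks, WT mouse 19 at 8 months and HdhQ150 mouse 30 at 22 months. Mice 1 and 2, and mice 12 and 13, are pairs in their groups of 4, which this ratio does not find. The difference of the genotype effect between ages was tested for 16 combinations of a member and a model with edgeR, and the lowest adjusted p was 0.464.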

How the results depend on the processing

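No paired analysis was possible because the column headings carry mouse numbers that are in no sample label, so the replicate numbers of the labels cannot be tied to columns. The number of genes called at 4 weeks was 0 with edgeR, 68 with DESeq2 and 1 with limma at either pseudocount, and 8 members were called by DESeq2 alone; with each library left out both numbers stayed at 0. At 15 weeks 2205 genes were called by edgeR, 3404 by DESeq2, 3588 with all 30 libraries in the fit, 987 and 1189 by limma on log2(FPKM + 1) and log2(FPKM + 0.1), and 1073 without WT mice 1 and 2. The 8 members called fell to 0 with limma at either pseudocount and to 0 without WT mice 1 and 2. With each library left out, 659 to 3376 genes and 0 to 8 members were called at 15 weeks, with 0 members without mouse 1, 2, 5, 7 or 8, 1 without mouse 6 and 8 without mouse 3 or 4. Without WT mice 1 and 2 the log2 fold changes of Cd3d (0.38) and Tcf7 (0.48) turned positive. Without the libraries against the sex in their heading, 33 genes and 0 members were called at 15 weeks and 5 genes at 22 months, and the log2 fold changes of Cd3d (0.47), Cd3e (0.0508) and Tcf7 (0.78) at 15 weeks and of Cd3d (-0.0619) at 22 months changed sign. At 8 months 0 genes became 68 with DESeq2 and 1 with all 30 libraries, and 0 to 3 with each library left out. At 22 months 0 genes became 627 with DESeq2, 1316 with all 30 libraries, where 2 members were called, and 2 with limma on log2(FPKM + 0.1), and 0 to 6 with each library left out, with 0 members throughout. The cause of these differences was not tested, beyond that fewer libraries enter some fits. The shares held by mice 1 and 2, mice 12 and 13 and mouse 31 moved by less than their spread with raw library totals and with FPKM, as did the profile overlaps with FPKM. The correlations of Cd3e stayed positive with a limit of 0.3 CPM on Rag1 and with a pseudocount of 0.5. Depth limits the immature genes outside the libraries that stand apart, which were mostly below 3 counts, so differences there were not detectable.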

Other observations

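Kappa light chain V segments of B cells showed a pattern of their own in the HdhQ150 hearts of 22 months. Of 59 Igkv segments in the tables, some near-identical, Igkv8-27 was the most frequent in all 4, with 211 of 293 Igkv counts in mouse 29 (72.0%, exact 95% interval 66.5 to 77.1), 47 of 88 in mouse 30 (53.4%, 42.5 to 64.1), 1641 of 3657 in mouse 31 (44.9%, 43.3 to 46.5) and 531 of 889 in mouse 32 (59.7%, 56.4 to 63.0). The 3 WT hearts of that age had 141, 74 and 76 Igkv counts, with Igkv4-91, Igkv4-68 and Igkv6-32 the most frequent. In mice 1, 2, 12 and 13 Igkv8-27 took 3.25%, 5.78%, 3.61% and 8.82%. Igkv8-27 was thus the leading segment in 4 of 4 HdhQ150 hearts and in none of the 3 WT hearts of 22 months, a difference that was not tested. The segment was picked after its values were seen, and mice 27, 28, 31 and 32 went against the sex in their heading. By transcripts of sex-linked genes the 4 HdhQ150 hearts and WT mouse 28 were female, and WT mice 26 and 27 male. Genotype and sex are therefore partly confounded in this comparison.

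Of 8 fat genes, 3 were above the other 25 libraries in mouse 31 and 2 in mouse 12, beside 17.0% and 7.37% of all genes with at least 300 counts. Their sum in mouse 31, 866 CPM, lay within the 376 to 1388 CPM of the other 25. Cfd was at 279.5 CPM in mouse 31, above the highest of the other 25 libraries at 177 CPM in mouse 32, while Fabp4 at 449 CPM lay within their range. The macrophage gene Csf1r was at 53.7 CPM in mouse 31, beside 30.04 to 51.7 CPM in the other 25, and Lyz2 at 337 CPM was below mouse 8 at 644 CPM. Globin transcripts varied widely, with Hbb-bt at 5498 CPM in mouse 31 and 101 to 7145 CPM in the other 25. Col3a1 of fibroblasts was at 90.1 CPM in mouse 31 and at 79.6 to 1059 CPM in the other 25.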
